A study of Mus musculus with 4 samples.

Results

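Transcripts of 10 genes of the TGF-beta and activin branch were followed through the cell types of the mouse fracture callus, out of 32285 genes counted. The genes were taken by name, not by their values, and comprised the ligand genes Tgfb1, Tgfb2, Tgfb3 and Inhba, the antagonist gene Fst, the receptor genes Tgfbr1, Tgfbr2 and Tgfbr3 and the Smad genes Smad3 and Smad7. Another 42 genes of the same pathway served as the surrounding list. All 10 genes were detected, with between 17176 UMIs in kept cells (Inhba) and 92327 UMIs (Tgfbr2), where a UMI (unique molecular identifier) stands for 1 captured RNA molecule.

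The calluses came from wild-type C57BL/6J mice, which were 3 months old and, per the study's methods, male. Mice received either Vehicle (control) or K/BxN serum injection (RA), a transfer of arthritogenic antibodies that gives a systemic joint inflammation, and the callus was taken at 4 or 7 days after fracture (dpf). Each of the 4 conditions was 1 single-cell library made from a pool of calluses. The labels put 4 calluses in a pool and the study's methods give another number. With 1 library per condition no test between conditions was possible, so no p-value is given, and every interval is one of counting error that leaves out how mice differ. PCR and capture add error that the intervals do not hold.

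The TGF-beta ligands are secreted as inactive complexes with a latency peptide and latent TGF-beta binding proteins, and are released by integrins or proteases. The active dimer binds the serine/threonine kinase receptor encoded by Tgfbr2, which recruits and phosphorylates the kinase encoded by Tgfbr1, and Smad2 and Smad3 then carry the signal to the nucleus with Smad4. Betaglycan, encoded by Tgfbr3, presents the ligand encoded by Tgfb2 to these receptors. Activin A is a dimer of the subunit encoded by Inhba, acts through its own type II receptors on the same Smads and is bound and neutralized by follistatin, encoded by Fst. Smad7 is induced by the pathway and blocks its receptors. In the callus these ligands are known for their part in progenitor recruitment, cartilage formation and matrix deposition.

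After the cell filter, 25479 of 34038 barcodes remained, with 4110 to 8223 cells per library and median depths of 16094 to 17632 UMIs per cell. Pairs of libraries shared 10 to 31 barcodes. Clustering, done without the 52 genes of the pathway, gave 23 clusters, and 19 class names were given from fixed marker genes. An endothelial cluster could not be placed between the arterial and the capillary name, a lymphoid cluster not between natural killer and T cells, and 145 cells stayed unnamed. The names of some classes need caution. The chondrogenic cell-like class also held osteogenic and cycling cells. Its 4 dpf cells depended on the clustering, with 54 in control and 59 in RA. They were 0 and 0 without integration, and 1 and 2 with the pathway genes included. The 4 dpf RA cells of the fibroblast precursor-like class also depended on the clustering, at 145 in the main one. They were 63 without integration and 90 with the pathway genes included, where control held 267, 264 and 200. The conventional dendritic cell-like class was led by Ccr7 and Il1b besides Cd209a. It was counted as myeloid, but its second-best name was mast cell or basophil. Its lineage check scored -0.0786 for lymphoid and -0.954 for myeloid markers. The muscle stem cell-like class was led by Ttn, Myog and Acta1 besides Pax7. In control at 7 dpf the tenocyte precursor-like class held 212 cells in the main clustering and 66 without integration. The fibroblast-like class held 804 and 250 there, and the committed mesenchymal progenitor-like class 1125 and 1772. Ratios within a class were not recomputed in the other clusterings. The make-up of the libraries differed, with myeloid cells at 57.1% of the control and 49.6% of the RA cells at 4 dpf against 33.3% and 18.7% at 7 dpf, and mesenchymal cells at 18.1%, 19.6%, 42.0% and 49.4%. Levels below are therefore given within a class or lineage, as CPM, the UMIs of a gene scaled to 1000000 UMIs of those cells.

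UMIs of mesenchymal genes in other lineages set a floor under these levels. Their source, free RNA of broken cells or doublets, was not tested. Called doublets were kept, at 0.969% (control) and 0.876% (RA) of cells at 4 dpf and 2.70% and 3.60% at 7 dpf. In myeloid cells the 5 mesenchymal check markers (Prrx1, Pdgfra, Col1a1, Col3a1 and Dcn) had a median of 0.575% (control) and 0.354% (RA) of their mesenchymal level at 4 dpf, and 1.33% and 1.28% at 7 dpf. In endothelial cells the medians were 0.425%, 0.390%, 1.40% and 1.12% in the same order. A mesenchymal gene at such a share in another lineage was read as background, and the floor was higher at 7 than at 4 dpf in both conditions.

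Ligand genes had separate sources. By median over the libraries, Tgfb1 was highest in monocyte-like and macrophage-like cells, Tgfb2 and Tgfb3 in mesenchymal cells, and Inhba in chondrogenic cell-like, mural and committed progenitor cells. The heat map of median levels shows this division and the broader pattern of the receptor genes.

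**Figure D1:**
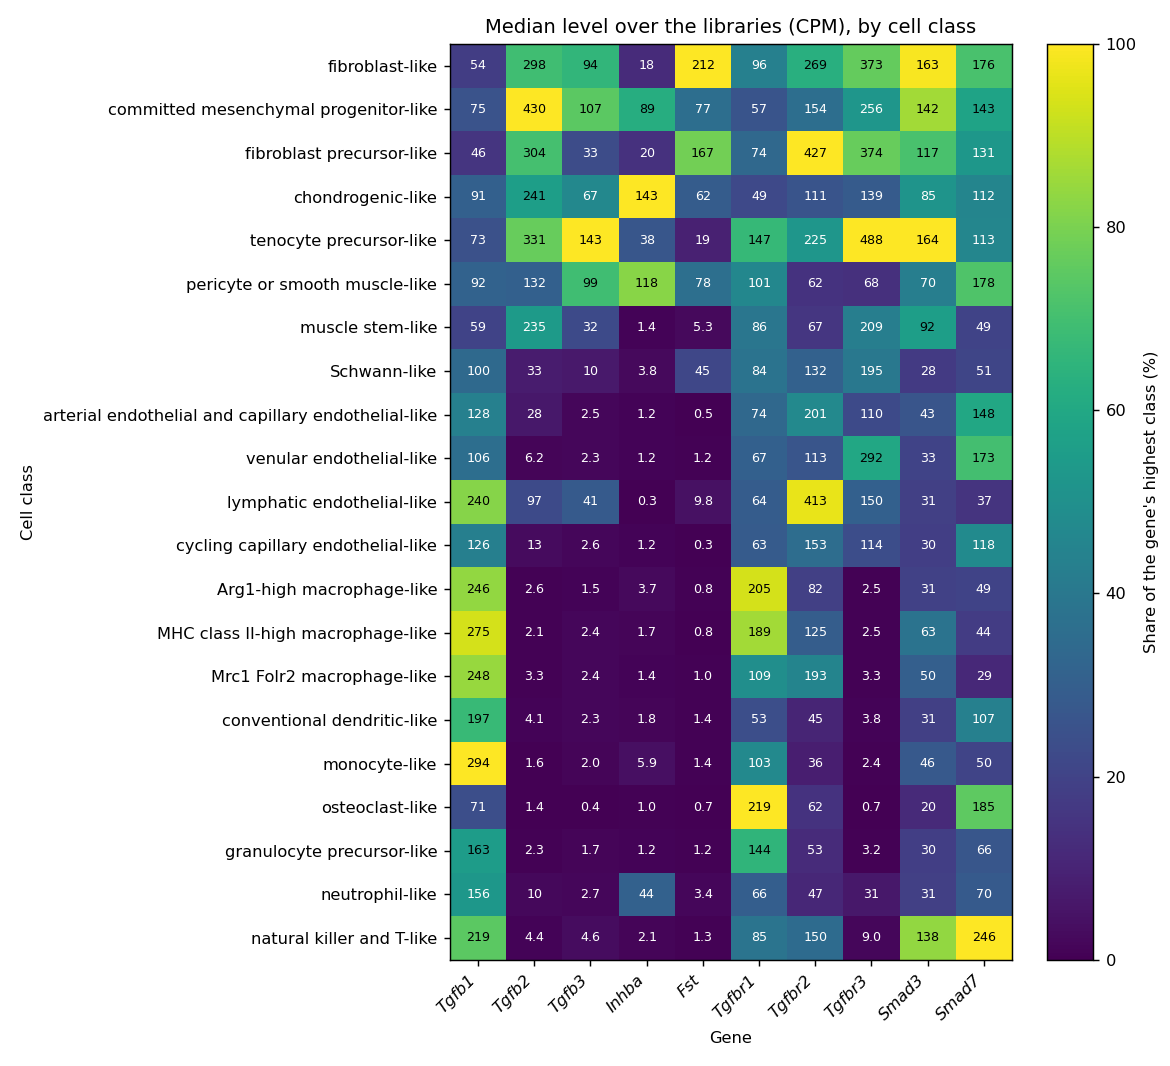
Median level of each gene in CPM over the libraries with at least 20 cells of a class, with cell classes as rows and genes as columns; the number in a cell is the median CPM, and the color is its share in percent of the highest class of the same gene, so that colors compare classes within a gene and not genes with each other. Tgfb1 is brightest in the macrophage and monocyte classes, Tgfb2, Tgfb3, Fst and Tgfbr3 in the mesenchymal classes at the top, and Smad7 in the natural killer and T cell-like class.

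Tgfb1, the most widely made of the TGF-beta ligands and the one stored by immune cells, was led by monocyte-like cells, at 305 (control 4 dpf), 279 (control 7 dpf), 298 (RA 4 dpf) and 289 CPM (RA 7 dpf). MHC class II-high macrophage-like cells followed at 259 to 281 CPM, a range that overlapped that of the monocyte-like cells. The other macrophage classes, lymphatic endothelial cell-like cells and natural killer and T cell-like cells came next with overlapping ranges. In the myeloid lineage as a whole Tgfb1 stood at 233, 227, 236 and 252 CPM in control 4 dpf, control 7 dpf, RA 4 dpf and RA 7 dpf. These levels were nearly flat: RA over control was 1.01 (95% counting interval 0.983 to 1.04) at 4 dpf and 1.11 (1.07 to 1.16) at 7 dpf. Mesenchymal cells held 53.4, 77.6, 67.1 and 60.0 CPM, with ratios of 1.26 (1.17 to 1.35) and 0.774 (0.747 to 0.802). The myeloid level moved little, yet the lineage that held most of the Tgfb1 UMIs differed between libraries, as did the cells present. Myeloid cells held 67.5% (control) and 58.4% (RA) of the Tgfb1 UMIs at 4 dpf, and 41.4% and 31.3% at 7 dpf. Mesenchymal cells held 9.80%, 12.3%, 37.1% and 40.4% in the same order, so in the RA library of 7 dpf they held more Tgfb1 UMIs than the myeloid cells did.

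**Figure D2:**
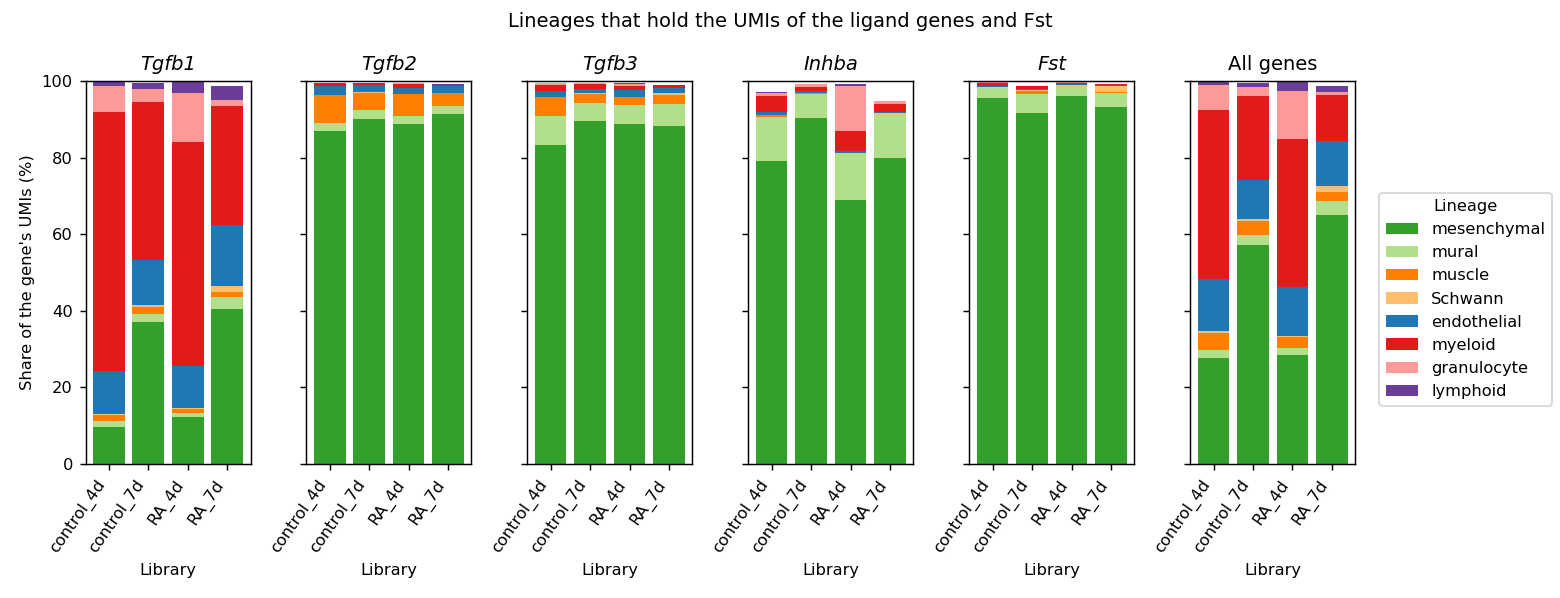
Share of the UMIs of Tgfb1, Tgfb2, Tgfb3, Inhba and Fst held by each lineage, in percent of all UMIs of that gene in kept cells of a library, with the same shares for all genes in the last panel; bars are the 4 libraries and colors the lineages, and bars end under 100% where unnamed cells hold the rest. Mesenchymal cells hold 87.0 to 91.5% of the Tgfb2 UMIs in every library, whereas the myeloid share of Tgfb1 runs from 67.5% in control at 4 dpf to 31.3% in RA at 7 dpf.

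Tgfb2, the ligand that depends most on betaglycan, was a mesenchymal transcript, at 323 (control 4 dpf), 337 (control 7 dpf), 291 (RA 4 dpf) and 363 CPM (RA 7 dpf). Mesenchymal cells held 87.0 to 91.5% of its UMIs while they held 27.8 to 64.9% of all UMIs. Committed mesenchymal progenitor-like cells led at 458, 403, 312 and 511 CPM, a range that the tenocyte precursor-like cells (248 to 334 CPM), the fibroblast precursor-like cells (226 to 329 CPM) and the fibroblast-like cells (278 to 316 CPM) overlapped. RA over control in mesenchymal cells was 0.902 (0.874 to 0.930) at 4 dpf and 1.08 (1.06 to 1.09) at 7 dpf, so the change stayed under 1.5-fold at both times. Muscle stem cell-like cells held a level of the same order, 162 and 272 CPM in control and 198 and 361 CPM in RA at 4 and 7 dpf, higher at 7 than at 4 dpf in each condition. Lymphatic endothelial cell-like cells went from 39.5 to 149.9 CPM in control and from 43.4 to 208 CPM in RA. In myeloid cells Tgfb2 stood at 0.488 to 1.27% of its mesenchymal level, inside the range of the mesenchymal check markers in 3 libraries. In RA at 4 dpf it was at 0.692%, above the highest check marker at 0.412%.

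Tgfb3, the ligand gene known from palate and tendon development, was highest in tenocyte precursor-like cells, at 142 (control 4 dpf), 154 (control 7 dpf), 144 (RA 4 dpf) and 129 CPM (RA 7 dpf). This range lay above that of the next class, the committed mesenchymal progenitor-like cells at 97.5 to 128 CPM, and pericyte or smooth muscle cell-like cells followed at 89.5 to 99.9 CPM. The whole mesenchymal lineage gave ratios of RA to control of 1.44 (1.36 to 1.53) at 4 dpf and 0.922 (0.893 to 0.953) at 7 dpf. Fibroblast precursor-like cells moved most at 4 dpf, from 22.5 CPM in control to 66.3 CPM in RA, a ratio of 2.95 (2.45 to 3.56) from 189 and 298 UMIs. The RA cells of this class at 4 dpf depended on the clustering. At 7 dpf the same class held 36.1 and 30.1 CPM. The endothelial level was low, 2.76 and 4.64 CPM at 4 dpf, and its ratio of 1.68 (1.09 to 2.61) rested on 41 and 50 UMIs and was 1.14 with the classes weighted as in the control library.

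Inhba, which encodes the subunit of activin A, showed the largest fall among the genes in mesenchymal cells. Its mesenchymal level was 47.3 CPM in control and 44.8 CPM in RA at 4 dpf, a ratio of 0.945 (0.872 to 1.02). At 7 dpf it was 103 CPM in control and 36.2 CPM in RA, a ratio of 0.352 (0.338 to 0.365). Control callus thus held 2.17 times the earlier level at 7 dpf, whereas the RA callus held less than at 4 dpf. Committed mesenchymal progenitor-like cells gave 93.2 and 84.8 CPM at 4 dpf, and 147 in control against 46.5 CPM in RA at 7 dpf, a ratio of 0.317 (0.298 to 0.337). The control cells of this class at 7 dpf depended on the clustering. Fibroblast precursor-like cells gave 30.5 and 9.56 CPM at 7 dpf, a ratio of 0.314 (0.271 to 0.363). The fall was not shared by the chondrogenic cell-like cells, the class with the highest median level, which held 222 CPM in control and 212 CPM in RA at 7 dpf. Tenocyte precursor-like cells lay between, at 62.0 and 41.0 CPM, and fibroblast-like cells held 20.3 and 15.4 CPM. The lead of the chondrogenic cell-like class was one of 7 dpf, since over the libraries it ran from 37.0 to 222 CPM. At 4 dpf it lay below the mural and the committed mesenchymal progenitor-like cells in each condition. The chondrogenic cell-like class made up 5.58% of control and 2.57% of RA cells at 7 dpf, so the lineage ratio combines levels within classes and the mix of classes. With the classes weighted as in the control library the mesenchymal ratio was 0.559, and with that class left out it was 0.302, both chosen after the values were seen. At 4 dpf a looser cell filter moved the mesenchymal ratio to 0.620.

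Pericyte or smooth muscle cell-like cells, the mural cells of vessels, were the other main Inhba source, at 97.6 (control 4 dpf), 159.6 (control 7 dpf), 138 (RA 4 dpf) and 88.8 CPM (RA 7 dpf). At 7 dpf the mural ratio of RA over control was 0.556 (0.492 to 0.628), in the same direction as in the mesenchymal cells, and at 4 dpf it was 1.41 (1.15 to 1.73). Neutrophil-like cells held 23.3, 43.0, 47.0 and 45.3 CPM in the same library order, from 13, 47, 175 and 32 UMIs. Among granulocytes as a lineage the ratio at 4 dpf was 7.73 (4.63 to 13.8), from 2.24 CPM in control to 17.3 CPM in RA, while neutrophil-like cells were 27 of 241 granulocytes in control and 149 of 376 in RA. Within the neutrophil-like class the ratio was 2.02 (1.15 to 3.86). At 7 dpf the granulocyte ratio was 1.58 (0.997 to 2.48) and the neutrophil-like one 1.05 (0.651 to 1.69), with neutrophil-like cells at 55 of 161 granulocytes in control and 32 of 62 in RA. Myeloid cells had 1.55, 3.58, 2.51 and 5.02 CPM, which was 3.28, 3.48, 5.61 and 13.9% of the mesenchymal level and thus above the share of the mesenchymal check markers. Within them monocyte-like cells had 2.86 and 11.9 CPM at 4 dpf. The myeloid ratio at 4 dpf, 1.62 (1.16 to 2.25), fell short of 1.5-fold when the classes were weighted equally (1.27) or when the conventional dendritic cell-like class was left out (1.33). In endothelial cells Inhba stood at 2.43 in control and 0.909 CPM in RA at 7 dpf, from 35 and 17 UMIs, or 2.36 and 2.51% of the mesenchymal level against 1.40 and 1.12% for the check markers. The endothelial ratio of 0.374 (0.197 to 0.686) was close to the mesenchymal one of 0.352, and the part of free RNA in it was not tested.

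Shares of cells with an Inhba UMI were read after thinning every cell to 4000 UMIs. Of committed mesenchymal progenitor-like cells, 16.0% (exact 95% interval 11.7 to 21.1) had one in control and 15.9% (11.8 to 20.7) in RA at 4 dpf, and 28.5% (25.9 to 31.3) and 13.6% (11.5 to 15.8) at 7 dpf. Unthinned, the shares were 43.6, 43.7, 65.2 and 40.6%. Arg1-high macrophage-like cells, shown for comparison, had 0.472 to 1.67% after thinning. They do not mark the floor, since Inhba in myeloid cells lay above the share of the check markers.

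The promoters of Inhba and Tgfbr2 are shown because these were the ligand and the receptor gene that differed most between conditions in mesenchymal cells. Of the 10 genes 6 had a promoter in RefSeq's GRCm38.p6 table. Shown are the 250 bases before the annotated start, on the strand of the gene, in lower case with CAGAC, the short Smad-binding element, in capitals.
Inhba, chr13:16011601-16011850, + strand: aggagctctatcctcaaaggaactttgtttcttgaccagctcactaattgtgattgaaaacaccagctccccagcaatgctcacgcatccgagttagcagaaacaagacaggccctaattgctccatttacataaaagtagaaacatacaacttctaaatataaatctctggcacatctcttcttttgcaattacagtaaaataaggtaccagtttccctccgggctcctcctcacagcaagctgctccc
Tgfbr2, chr9:116175364-116175613, - strand: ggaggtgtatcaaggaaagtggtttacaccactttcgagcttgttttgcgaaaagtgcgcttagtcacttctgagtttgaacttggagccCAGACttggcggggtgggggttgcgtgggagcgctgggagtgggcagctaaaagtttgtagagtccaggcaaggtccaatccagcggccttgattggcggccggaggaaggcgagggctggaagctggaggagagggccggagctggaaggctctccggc
Searched on both strands, CAGAC was in 42.2% of 32536 promoters of this length, the AP-1 motif TGANTCA in 6.73% and the palindromic GTCTAGAC in 0.169%. The Tgfbr2 window held 1 CAGAC, 160 bases before the start, and neither of the other motifs, and the Inhba window held none of the 3. CAGAC was also found in the Tgfb2 window, 204 and 221 bases before the start, and in 1 of the Tgfbr1 windows, 203 bases before the start.

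Fst, whose product follistatin neutralizes activin A, moved the opposite way to Inhba in mesenchymal cells at 7 dpf. Mesenchymal cells held 133.9 CPM in control and 164 CPM in RA at 4 dpf, and 70.4 and 144 CPM at 7 dpf, with ratios of 1.22 (1.17 to 1.28) and 2.05 (1.98 to 2.11). The control level at 7 dpf was the lowest of the 4 libraries, and the RA level at 7 dpf was close to the level of both libraries at 4 dpf. Fibroblast-like cells, the leading class, held 233, 105, 205 and 219.8 CPM in control 4 dpf, control 7 dpf, RA 4 dpf and RA 7 dpf. Fibroblast precursor-like cells held 169.7, 86.8, 229 and 165 CPM, and their range overlapped that of the fibroblast-like cells. Committed mesenchymal progenitor-like cells held 62.2, 61.7, 132 and 91.8 CPM. In this class the larger ratio was at 4 dpf, 2.13 (1.93 to 2.36), against 1.49 (1.43 to 1.55) at 7 dpf. In fibroblast-like cells the 4 dpf ratio was 0.880 (0.820 to 0.944). Tenocyte precursor-like cells were lower in RA at both times, from 16.6 to 3.06 CPM at 4 dpf and from 41.6 to 21.8 CPM at 7 dpf, with ratios of 0.185 (0.0574 to 0.464), from 46 and 5 UMIs, and 0.524 (0.419 to 0.654). The 7 dpf control cells of this class and of the fibroblast-like class depended on the clustering. Given equal weight to each mesenchymal class, the 7 dpf ratio of Fst was 1.39. Schwann cell-like cells gave 24.2 and 94.7 CPM at 7 dpf, from 23 and 236 UMIs, where the mesenchymal check markers had medians of 4.56 and 4.97% of their mesenchymal level. In endothelial cells Fst stood at 1.32 and 3.10 CPM at 7 dpf, 1.87 and 2.15% of its mesenchymal level against 1.40 and 1.12% for the check markers, and its part of free RNA was not tested.

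**Figure D3:**
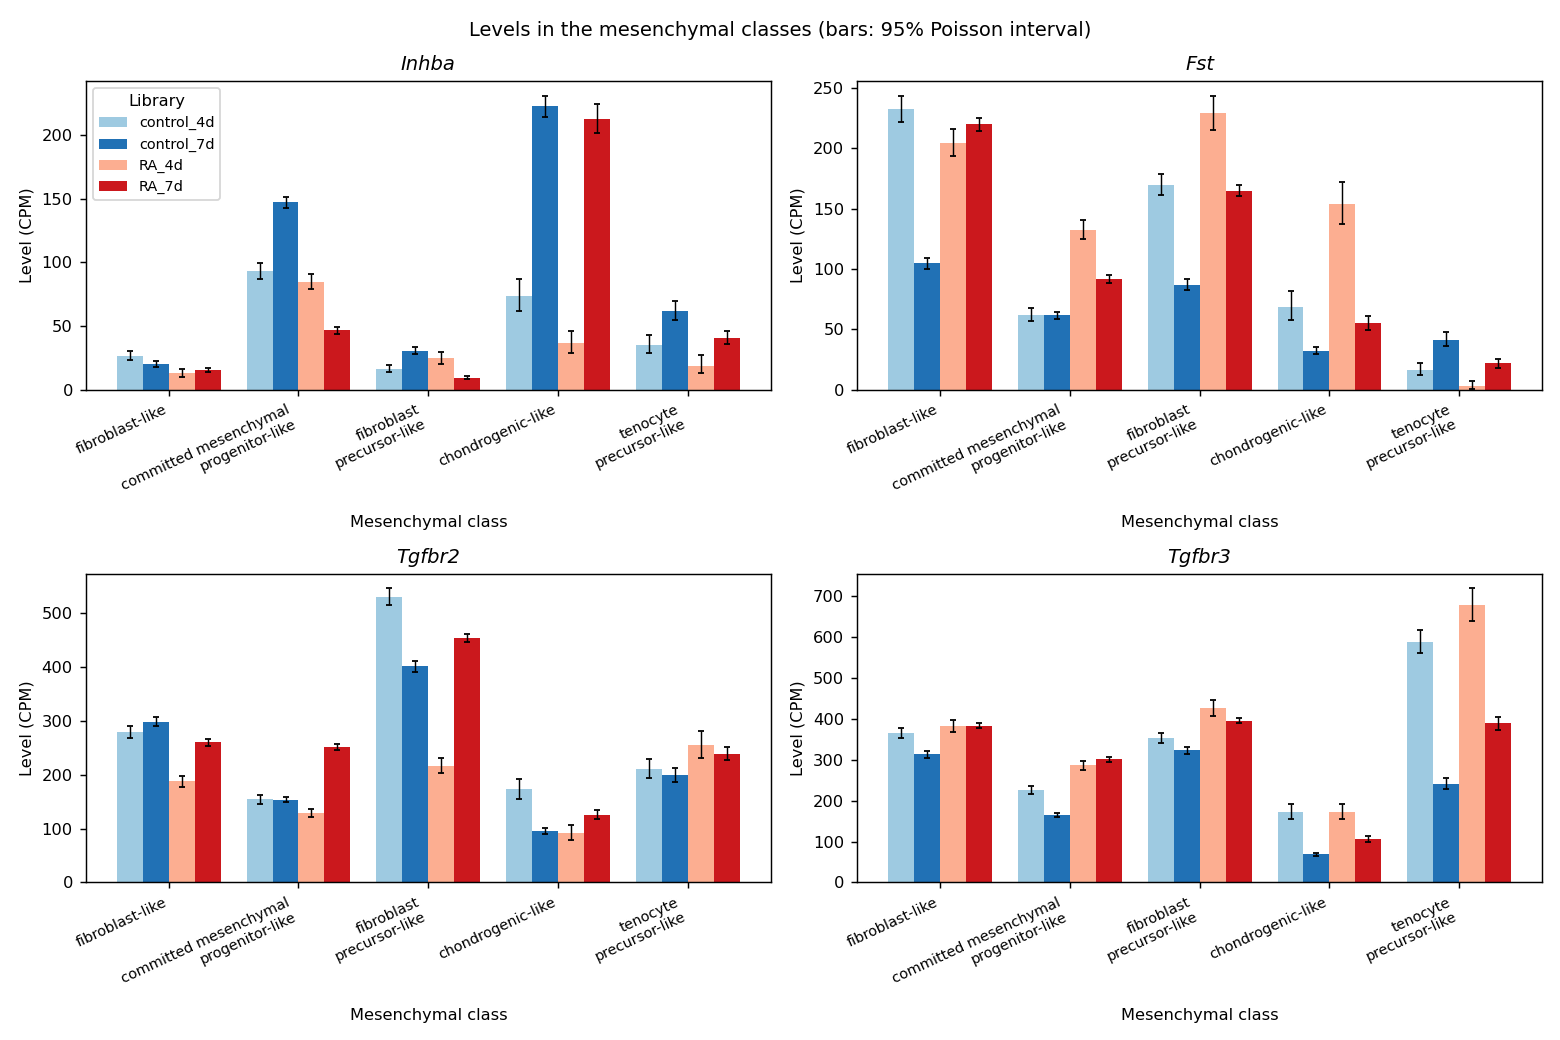
Levels of Inhba, Fst, Tgfbr2 and Tgfbr3 in CPM in the 5 mesenchymal classes, with 1 bar per library (control in blue, RA in red, darker at 7 dpf) and exact 95% Poisson intervals as error bars. In committed mesenchymal progenitor-like cells Inhba is at 147 CPM in control and 46.5 CPM in RA at 7 dpf, and in fibroblast precursor-like cells Tgfbr2 is at 529 CPM in control and 217 CPM in RA at 4 dpf. The 4 dpf RA cells of the fibroblast precursor-like class depended on the clustering.

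The receptor genes were made by most classes, with different leaders. Tgfbr1, which encodes the type I kinase, was highest in osteoclast-like cells at 199 to 272 CPM over the 3 libraries that held at least 20 of them, and Arg1-high and MHC class II-high macrophage-like cells had overlapping ranges of 168 to 232 and 177 to 256 CPM. In myeloid cells as a lineage it stood at 139 (control 4 dpf), 216 (control 7 dpf), 160.1 (RA 4 dpf) and 156 CPM (RA 7 dpf). The control level was higher at 7 than at 4 dpf and the RA level was not, with a ratio of RA to control of 0.725 (0.694 to 0.757) at 7 dpf and 1.15 (1.11 to 1.20) at 4 dpf. Monocyte-like cells held 158 and 85.2 CPM at 7 dpf, a ratio of 0.541 (0.443 to 0.657), and Mrc1 Folr2 macrophage-like cells 176 and 107 CPM, a ratio of 0.610 (0.544 to 0.684). Mesenchymal cells had lower levels of Tgfbr1, 66.7 to 89.4 CPM, with ratios of 1.16 (1.09 to 1.23) and 1.34 (1.29 to 1.39).

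Tgfbr2, the gene of the ligand-binding type II kinase, was the only one of the 10 genes to pass 1.5-fold in mesenchymal cells at 4 dpf. Its level was 299 (control 4 dpf), 228 (control 7 dpf), 167 (RA 4 dpf) and 307 CPM (RA 7 dpf). RA over control was 0.560 (0.540 to 0.582) at 4 dpf and 1.35 (1.33 to 1.37) at 7 dpf, so RA was below control at the first time and above it at the second. Fibroblast precursor-like cells carried the largest difference, 529 against 217 CPM at 4 dpf, a ratio of 0.409 (0.382 to 0.439), and 400.3 against 453 CPM at 7 dpf. The RA cells of this class at 4 dpf depended on the clustering. Chondrogenic cell-like cells gave 172 and 91.9 CPM at 4 dpf, from 54 and 59 cells that depended on the clustering. Fibroblast-like cells gave 279 and 187 CPM. Tenocyte precursor-like cells did not share the fall, with 211 in control and 255 CPM in RA at 4 dpf. With each class weighted equally the mesenchymal ratio at 4 dpf was 0.682, short of 1.5-fold. In committed mesenchymal progenitor-like cells the levels were 154 and 128 CPM at 4 dpf, and 153 and 251 CPM at 7 dpf with a ratio of 1.64 (1.58 to 1.70). Lymphatic endothelial cell-like cells were the other high class, at 355 to 463 CPM, above the range of the fibroblast-like cells at 187 to 298 CPM. In myeloid cells Tgfbr2 ran from 80.9 to 136 CPM with ratios of 0.766 (0.730 to 0.803) and 1.25 (1.19 to 1.32), the same order of directions as in the mesenchymal cells.

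Thinned shares of fibroblast precursor-like cells with a Tgfbr2 UMI were 83.1% (78.1 to 87.4) in control and 59.3% (50.9 to 67.4) in RA at 4 dpf, and 72.2% (68.6 to 75.6) and 78.9% (76.4 to 81.2) at 7 dpf. Unthinned, the shares were 98.1, 96.6, 97.3 and 98.5%, close to saturation. The RA cells of this class at 4 dpf depended on the clustering.

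Tgfbr3, the gene of the co-receptor betaglycan, was mostly mesenchymal, with 73.5 to 84.6% of its UMIs in those cells. Its mesenchymal level was 328 (control 4 dpf), 218 (control 7 dpf), 356 (RA 4 dpf) and 347 CPM (RA 7 dpf), with ratios of RA to control of 1.08 (1.05 to 1.12) and 1.59 (1.56 to 1.62). The 7 dpf ratio was 1.47 with equal class weights, 1.43 with the weights of the control library and 1.48 without the chondrogenic cell-like class, all short of 1.5-fold. As for Fst, the control library of 7 dpf was the low one. Tenocyte precursor-like cells led at 588, 241, 677 and 388 CPM, a range that overlapped those of the fibroblast-like cells and their precursor-like class. At 7 dpf RA was also above control outside the mesenchyme. Endothelial cells held 118 and 253 CPM, a ratio of 2.13 (2.02 to 2.25), and mural cells 62.3 and 134 CPM, a ratio of 2.16 (1.85 to 2.52). Muscle stem cell-like cells held 175 and 411 CPM, a ratio of 2.36 (2.17 to 2.56), and Schwann cell-like cells 119 and 353 CPM, a ratio of 2.97 (2.44 to 3.65). At 4 dpf the endothelial ratio was 1.30 (1.23 to 1.38), the muscle ratio 2.23 (1.98 to 2.51) and the Schwann ratio 2.40 (1.65 to 3.50), the last from 29 and 20 cells. Among endothelial cells the venular endothelial cell-like class was highest, at 272, 207, 311 and 365 CPM. Myeloid cells had 1.66 to 4.70 CPM, with ratios of 1.92 (1.42 to 2.61) and 2.00 (1.45 to 2.77). This was 0.505% (control) and 0.896% (RA) of the mesenchymal level at 4 dpf, where the check markers ran from 0.297 to 0.631% and from 0.187 to 0.412%. At 7 dpf it was 1.08 and 1.36%, against 1.18 to 1.58% and 1.01 to 1.38% for the check markers. The summed check markers in myeloid cells were 195 and 96.4 CPM at 4 dpf and 448 and 565 CPM at 7 dpf, and the part of free RNA in these ratios was not tested.

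Smad3, which encodes a signal-carrying Smad, stood in mesenchymal cells at 132 (control 4 dpf), 113 (control 7 dpf), 160.5 (RA 4 dpf) and 147 CPM (RA 7 dpf), with ratios of 1.22 (1.17 to 1.27) and 1.30 (1.27 to 1.33). Tenocyte precursor-like, fibroblast-like, committed mesenchymal progenitor-like and natural killer and T cell-like cells led with overlapping ranges between 116 and 205 CPM. RA was above control in fibroblast precursor-like cells at 4 dpf, 180.4 against 86.9 CPM, a ratio of 2.08 (1.88 to 2.30). The RA cells of this class at 4 dpf depended on the clustering. In muscle stem cell-like cells RA was above control at both times, with ratios of 1.56 (1.31 to 1.85) and 1.51 (1.32 to 1.73).

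Smad7, the inhibitory Smad gene, was highest in natural killer and T cell-like cells, at 314, 248, 242 and 245 CPM in control 4 dpf, control 7 dpf, RA 4 dpf and RA 7 dpf, a range above that of the next class, the osteoclast-like cells at 182 to 193 CPM. In mesenchymal cells it was flat, 148, 136, 152 and 148 CPM. In myeloid cells it was 66.5, 61.1, 71.3 and 39.8 CPM, with a ratio of RA to control of 1.07 (1.02 to 1.13) at 4 dpf and 0.651 (0.597 to 0.709) at 7 dpf. Osteoclast-like and conventional dendritic cell-like cells, the myeloid classes with the highest Smad7 levels, were 103 and 195 cells in control and 10 and 150 in RA at 7 dpf, of 2553 and 1541 myeloid cells. The osteoclast-like class was thus a smaller share of the myeloid cells in RA, and the conventional dendritic cell-like class a larger one. With the classes weighted as in the control library, a weighting added after the values were seen, the ratio at 7 dpf was 0.787. With equal weights it was 0.770, and both were short of 1.5-fold. The osteoclast-like class, with 10 cells in RA, fell below the minimum of cells and was left out of both weightings. Both values are therefore ratios of the other myeloid classes. Arg1-high macrophage-like cells held 44.9 and 38.9 CPM at 7 dpf, MHC class II-high macrophage-like cells 46.1 and 31.1 CPM, and monocyte-like cells 50.3 and 41.4 CPM, each with RA below control, where the counting interval of the ratio held 1 for the first and the last.

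**Figure D4:**
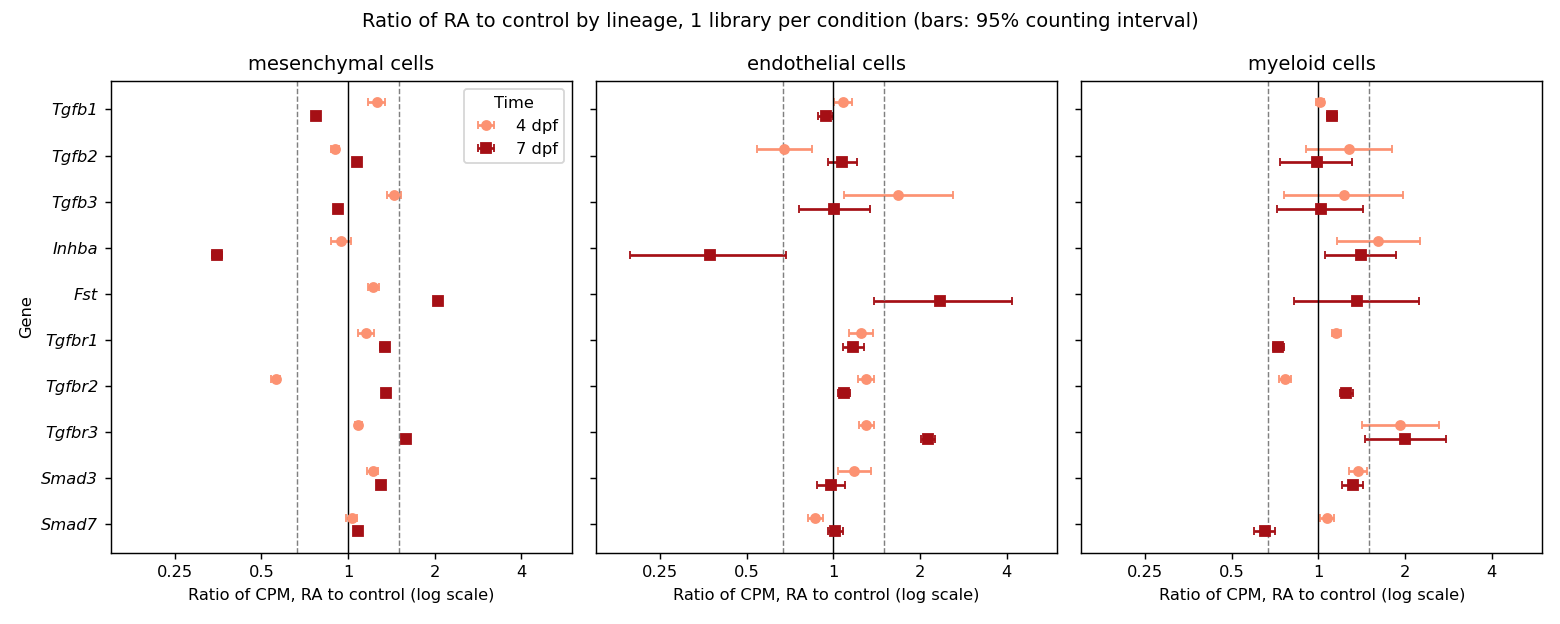
Ratio of RA to control in CPM for each gene with at least 50 UMIs over both libraries, in mesenchymal, endothelial and myeloid cells, on a log axis; circles are 4 dpf, squares 7 dpf, bars the 95% counting interval, and dashed lines mark 1.5-fold in either direction. In mesenchymal cells Inhba lies at 0.352 and Fst at 2.05 at 7 dpf, and Tgfbr2 at 0.560 at 4 dpf, with most other points between the dashed lines.

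Counted together, a gene was called when its ratio passed 1.5-fold in either direction with at least 50 UMIs over both libraries. In mesenchymal cells at 4 dpf 1 of 10 genes was called (Tgfbr2, lower), against 11.5% of all 14254 genes compared, and the median log2 ratio of the 10 was 0.16 against 0.04 over all genes. Of all genes called there 66.0% were higher, or 55.2% under TMM scaling. At 7 dpf 3 of 10 were called (Fst and Tgfbr3 higher, Inhba lower), against 17.5% of 17333 genes, with medians of 0.25 and -0.04. In myeloid cells 2 of 9 were called at 4 dpf (Inhba and Tgfbr3 higher), against 8.26% of 13322 genes, and 2 of 10 at 7 dpf (Tgfbr3 higher, Smad7 lower), against 10.6% of 12657 genes. In endothelial cells 1 of 8 was called at 4 dpf (Tgfb3 higher), against 7.06% of 12571 genes, and 3 of 10 at 7 dpf (Fst and Tgfbr3 higher, Inhba lower), against 11.1% of 13379 genes. Muscle stem cell-like cells had 5 of 9 called at 7 dpf, all higher (Tgfb3, Fst, Tgfbr3, Smad3 and Smad7), against 21.7% of 10160 genes, and 2 of 8 at 4 dpf against 19.9% of 9471 genes. In mural cells none of 10 passed 1.5-fold at 4 dpf, where 11.9% of 7746 genes did, and 2 did at 7 dpf (Tgfbr3 higher, Inhba lower) against 10.4% of 10686 genes. Granulocytes had 3 of 7 called at 4 dpf (Inhba and Tgfbr3 higher, Tgfbr2 lower), against 26.2% of 10824 genes, and 4 of 7 at 7 dpf, against 20.7% of 8421 genes. In granulocytes at 7 dpf the mesenchymal check markers had medians of 1.6% (control) and 4.7% (RA) of their mesenchymal level. RA held 62 granulocytes there, and the part of free RNA in these calls was not tested. These counts are small, and some rest on levels close to the floor described above.

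Of the other 42 pathway genes, the mesenchymal cells at 4 dpf had 5 higher and 3 lower of 40 compared. Over all genes compared there, 7.58% were higher and 3.90% lower. Ltbp1, which encodes a latent TGF-beta binding protein, went from 189 CPM in control to 80.8 CPM in RA, a ratio of 0.429 (0.407 to 0.451). Tgfbi, a matrix protein gene named for its induction by TGF-beta, went from 246 to 133 CPM with a ratio of 0.541 (0.518 to 0.564), and Ltbp4 from 86.0 to 47.4 CPM. The responsive genes did not move as a group, since Ccn2, chosen after its values were seen, went from 77.8 to 127 CPM while Tgfbi was lower. At 7 dpf 1 was higher and 4 were lower of 41, against 8.58% and 8.87% of all genes compared. Tagln, a contractile gene, fell from 193 to 46.3 CPM, a ratio of 0.240 (0.232 to 0.248). Ltbp2 fell from 76.9 to 47.3 CPM, and Lrrc32, whose product tethers latent TGF-beta to the cell surface, rose from 38.0 to 70.1 CPM. Fstl3, which encodes another follistatin-type antagonist, moved the opposite way to Fst, from 10.2 CPM in control to 6.47 CPM in RA, a ratio of 0.632 (0.569 to 0.701). At 4 dpf, outside the naming rule, the ratio of Fstl3 was 1.56 (1.30 to 1.86). The remaining called gene at 7 dpf was Thbs1, whose product can activate latent TGF-beta, from 256 to 166 CPM.

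In myeloid cells 1 of the other genes was higher and 6 lower of 34 at 4 dpf, and 3 were higher and 7 lower of 33 at 7 dpf. Over all genes compared, 3.51% were higher and 4.75% lower at 4 dpf, and 6.25% and 4.34% at 7 dpf. Pmepa1, a pathway-induced inhibitor of receptor-regulated Smads, went from 93.4 to 39.5 CPM at 7 dpf, a ratio of 0.423 (0.390 to 0.459). That ratio is of the whole lineage, in which osteoclast-like cells were 103 in control and 10 in RA. The classes were not reweighted for Pmepa1, so the part of their mix was not tested. At 4 dpf Ldlrad4, another inhibitor of Smad activation, had 53.9 CPM in control and 27.5 CPM in RA. The other myeloid genes of the naming rule lay below 7 CPM in each library (Ltbp4, Lrrc32 and Tagln at 4 dpf, and Acvr2b, Ltbp2 and Ccn1 at 7 dpf). In endothelial cells 1 was higher and 1 lower of 35 at 4 dpf, and 4 and 4 of 37 at 7 dpf. Over all genes compared, the shares were 4.04% and 3.01% at 4 dpf, and 5.79% and 5.32% at 7 dpf. Pmepa1 fell in endothelial cells too at 7 dpf, from 149.8 to 87.3 CPM. At 4 dpf Gdf15, the gene of a stress-induced secreted factor, went from 109.7 to 51.5 CPM there, and Tgfbi from 91.3 to 150.0 CPM. Endothelial Fstl3 had 2.15 and 1.07 CPM at 7 dpf, from 31 and 20 UMIs, and Ltbp2 had 1.46 and 2.41 CPM.

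The genes most like each member in pattern were sought over 83 sums of a class in a library, among 8394 genes, by Pearson's r of log2(CPM + 1). These sums share libraries and depth and are not independent, so r is a description. Tgfb2 was closest to Antxr1 (r = 0.953) and Arhgap42 (0.945), Tgfb3 to Srpx2 (0.927) and Igsf10 (0.926), and Tgfbr3 to Mpdz (0.963) and Parva (0.954). Tgfb1 was closest to Lyn (0.909) and Ptpn18 (0.902), while Inhba was closest to Pth1r (0.821) and Bmp5 (0.818). Fst was closest to Slit3 (0.930) and Col5a1 (0.923), Tgfbr2 to Smurf2 (0.817) and Trio (0.787), Tgfbr1 to Atp6v1a (0.785) and Atp6v0d2 (0.778), Smad3 to Angpt1 (0.794) and Medag (0.792), and Smad7 to Slc1a5 (0.815) and Vegfc (0.700). Among the members themselves the closest pair was Tgfb2 with Tgfb3, at 0.921, followed by Tgfb2 with Tgfbr3 at 0.812, and Tgfb1 ran against Tgfb2 at -0.746.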

How the data were processed

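Callus cells of 4 libraries were profiled with 10x 3′ chemistry. The deposited files hold raw UMI counts per gene and barcode, the output of Cell Ranger 7.0.1 as run by the authors on mm10. Whether intronic reads were counted is not given in the sources used here. Kept UMIs per library ran from 83405494 to 156567619, and the intervals printed rest on these counts alone.

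Cells with 4000 to 50000 UMIs, 2000 to 7000 features and at most 8% mitochondrial UMIs were kept, as in the study's methods. Libraries were integrated by CCA in Seurat 5.3.0 on 2000 variable genes without the 52 pathway genes, and Louvain clustering used 15 components at a resolution of 0.5. Clusters were named from listed markers, where a name needed a marker score of at least 1, a lead of 0.35 over the next name and 3 detected markers. These naming thresholds were set after the clusters were seen. Scrublet called 592 cells (2.32%) doublets, which were kept except in the alternative without them.

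UMIs were summed per class or lineage and library and scaled to CPM. Levels carry exact Poisson intervals, ratios the exact conditional interval and shares of cells the Clopper-Pearson interval, all at 95%. A gene with at least 50 UMIs over both libraries was compared, and a class needed 20 cells in a library. A ratio of at least 1.5, or of at most its inverse, was called, without a pseudocount. No p-value was computed. Shares of cells were read after each cell was thinned to 4000 UMIs. All 10 genes were described. Of the other pathway genes up to 4 of the called ones with the largest change were eligible per lineage and time, and the values of 1 such gene are not reported here. For patterns, the closest 2 genes by r were named. The genes, lists and rules were chosen with earlier results of these data known. Alternatives covered the cell filter, integration, resolution, pathway genes, doublets, TMM scaling, a pseudocount of 1 CPM, a minimum of 10 UMIs and the weights of classes and cells. The ratios, their intervals, the calls and the TMM factor were tested on simulated counts at the depth of the mesenchymal sums. Other steps were not tested in this way. The software was Python 3.11.15, numpy 2.4.6, scipy 1.17.1, pandas 2.3.3, scanpy 1.11.5 and R 4.3.3.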

Additional observations from a re-analysis of the deposited data

Results flagged for a closer look

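Inhba passed 1.5-fold in opposite directions in different lineages. In RA against control it was lower at 7 dpf in mesenchymal cells at 0.352 (95% counting interval 0.338 to 0.365), in endothelial cells at 0.374 (0.197 to 0.686), from 35 and 17 UMIs, and in mural cells at 0.556 (0.492 to 0.628). It was higher in granulocytes, at 7.73 (4.63 to 13.8) at 4 dpf and 1.58 (0.997 to 2.48) at 7 dpf, where the neutrophil-like class alone gave 1.05 (0.651 to 1.69), and in myeloid cells at 1.62 (1.16 to 2.24) at 4 dpf. The difference between lineages was not tested, since each condition was 1 library.

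Inhba also diverged between mesenchymal classes at 4 dpf, where the ratio of the whole lineage was 0.945, or 0.620 with the looser cell filter. Fibroblast precursor-like cells were higher in RA, at a ratio of 1.53 (1.18 to 1.98). Fibroblast-like cells at 0.486 (0.374 to 0.626), chondrogenic cell-like cells at 0.503 (0.374 to 0.672) and tenocyte precursor-like cells at 0.538 (0.347 to 0.814) were lower. The chondrogenic cell-like class at 4 dpf and the 4 dpf RA cells of the fibroblast precursor-like class depended on the clustering. The difference between these classes was not tested.

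Fst passed 1.5-fold downward in tenocyte precursor-like cells and upward in other mesenchymal classes. They gave ratios of RA over control of 0.185 (0.0574 to 0.464) at 4 dpf and of 0.524 (0.419 to 0.654) at 7 dpf. At 4 dpf the committed mesenchymal progenitor-like cells gave 2.13 (1.93 to 2.36) and the chondrogenic cell-like cells 2.24 (1.82 to 2.77), while fibroblast-like cells gave 0.880 (0.820 to 0.944). At 7 dpf the fibroblast-like cells gave 2.10 (2.00 to 2.21), the fibroblast precursor-like cells 1.90 (1.79 to 2.02) and the chondrogenic cell-like cells 1.69 (1.46 to 1.96). The 4 dpf cells of the chondrogenic cell-like class depended on the clustering. So did the 7 dpf control cells of the tenocyte precursor-like and fibroblast-like classes. The difference between the classes was not tested.

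Smad7 at 7 dpf was lower in RA in myeloid cells, with a ratio of 0.651 (0.597 to 0.709), and higher in muscle stem cell-like cells, with a ratio of 1.77 (1.48 to 2.12). The difference between the lineages was not tested.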

How the results depend on the processing

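Of 57 ratios of the 10 genes in mesenchymal, myeloid and endothelial cells, 12 passed 1.5-fold, and no called ratio turned direction under any alternative tried. All 12 calls remained under TMM scaling, a minimum of 10 UMIs, a resolution of 1 and clustering with the pathway genes. With classes weighted as in the control library 8 remained, and 5 with classes weighted equally. Both weightings left out the osteoclast-like class in myeloid cells at 7 dpf, where it fell below the minimum of cells in RA. Equal weights gave 0 called genes in mesenchymal cells at 4 dpf (1 in the main count), 1 at 7 dpf (3), 0 in myeloid cells at 4 dpf (2) and 0 in endothelial cells at 4 dpf (1). The looser cell filter gave 2 in mesenchymal and 2 in endothelial cells at 4 dpf. In myeloid cells at 4 dpf 1 was called without integration, with a pseudocount of 1 CPM, with the control library's class weights, with the mean of the CPM of each cell and without the conventional dendritic cell-like class. The mean of the CPM of each cell gave 1 in myeloid cells at 7 dpf and 2 in endothelial cells at 4 dpf, where leaving out doublets and TMM scaling each gave 2 and a minimum of 10 UMIs gave 3. The median Inhba level of chondrogenic cell-like cells was 143 CPM over the 4 libraries. Without integration it was 261 CPM, but the class then held 0 cells in both 4 dpf libraries. That median covers 7 dpf alone and is not of the same libraries. The cause of the shifts in the counts of called genes was not tested. Shares of cells with a UMI are lower after thinning by construction.

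No paired analysis was possible because each condition was 1 library, and the number 1 that every library carries only names it. Low levels, such as those of Tgfbr3 in myeloid cells, and classes with few cells set the limit of what the counts can show. The intervals hold counting error only, so a difference between pools of mice cannot be told apart from one of treatment. Fewer UMIs were kept in the RA library of 4 dpf than in the other libraries.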
